A study of Mus musculus with 8 samples.

Results

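The 10 genes described here are the hydroxysteroid dehydrogenases Hsd3b1 to Hsd3b7 and 3 steroid-reducing enzymes, Akr1d1, Srd5a1 and Hsd11b1, out of 46517 genes counted in mouse liver. They were chosen by name, after a large difference in Hsd3b5 between genotypes had been seen in the same livers. Their differences between genotypes are therefore given as a description, with fold changes and standard errors and without P values. MøFoxO1-KO mice carried FoxO1 loxP/loxP alleles and Lyz2-Cre, a Cre recombinase driven by the lysozyme 2 gene, which is active in myeloid cells such as macrophages and neutrophils. WT littermates carried the FoxO1 loxP/loxP alleles without Cre. Both groups were male C57BL/6 mice that received a diet inducing nonalcoholic steatohepatitis (NASH) for 25 weeks from 6 weeks of age, and were 31 weeks old and fasted for 16 hours at collection. RNA of the whole liver was sequenced from 4 mice of each genotype, named here WT22 to WT25 and KO26 to KO29.

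Hydroxysteroid dehydrogenases of the Hsd3b family act on the hydroxyl or keto group at the third carbon of the steroid ring. Some members oxidize it and so make progesterone, androgen and glucocorticoid precursors in the adrenal gland and gonads, whereas Hsd3b4 and Hsd3b5 work as reductases that inactivate steroid hormones. Hsd3b5 is a hepatocyte gene known for its higher expression in male than in female mouse liver, which depends on the pattern of growth hormone release. Among the liver enzymes, Srd5a1 and Akr1d1 reduce steroid hormones, Hsd11b1 reactivates glucocorticoid, and Akr1d1 and Hsd3b7 take part in making bile acids.

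The libraries held between 15253218 and 18025481 counts per mouse. Normalized counts are counts divided by the library size after TMM scaling, put on the scale of an average library. The hepatocyte markers were those of liver, with Alb at 739748 counts or more in every mouse. The summed normalized counts of the 10 hepatocyte markers were 1333416 to 1795949 in WT and 1570925 to 2241687 in MøFoxO1-KO livers. Of the 10, 8 had a log2 fold change above 0, beside 48.3% of all genes tested. The 12 macrophage markers summed to 3005 to 5259 in WT and 3347 to 14789 in MøFoxO1-KO livers, and 10 of the 12 had a log2 fold change above 0. The sum includes Lyz2, the gene that drives Cre in MøFoxO1-KO mice. Lyz2 had 384 to 1268 counts in WT and 83 to 913 in MøFoxO1-KO livers. Of the 10 adrenal markers, 8 had no count in any mouse, including the adrenal hydroxylases Cyp11b1 and Cyp11b2. Foxo1 had 328 to 467 counts in WT and 253 to 448 in MøFoxO1-KO livers, all liver cells together. WT23 stood apart from the other WT livers: the mean squared difference of counts between mice, relative to sampling noise, was 69.0 to 99.9 for pairs with WT23 and 29.9 to 55.9 for the other pairs of the same genotype. In RNA of a whole organ, fewer cells of a type and less RNA per cell cannot be told apart.

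Genes Hsd3b1 to Hsd3b6 lie side by side on the minus strand of chromosome 3 and are close copies of each other, so the sequences that separate them decide what a count can mean. Their coding sequences in GENCODE M21 all have 1119 bases, and Hsd3b5 shares 95.2% of its bases with Hsd3b4, 80.5% with Hsd3b2 and 80.2% with Hsd3b3. The stretch of 90 bases in which Hsd3b5 and Hsd3b4 differ most runs from coding base 766 to 855. It is shown for the 4 members because it holds 12 of the 54 differences between Hsd3b5 and Hsd3b4. Capitals mark bases unlike Hsd3b5, and sequences are from GRCm38, minus strand, in a coding exon. They lie at chr3:98619274-98619363 for Hsd3b5, chr3:98499723-98499812 for Hsd3b4, chr3:98711773-98711862 for Hsd3b2 and chr3:98742151-98742240 for Hsd3b3.
Hsd3b5: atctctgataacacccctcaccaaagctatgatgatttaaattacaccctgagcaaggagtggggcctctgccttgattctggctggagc
Hsd3b4: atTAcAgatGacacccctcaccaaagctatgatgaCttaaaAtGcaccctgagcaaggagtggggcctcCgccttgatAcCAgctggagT
Hsd3b2: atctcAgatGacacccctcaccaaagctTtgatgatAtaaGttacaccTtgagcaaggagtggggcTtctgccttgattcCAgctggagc
Hsd3b3: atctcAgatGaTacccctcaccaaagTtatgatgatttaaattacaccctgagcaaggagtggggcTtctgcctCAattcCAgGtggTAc
Of all stretches of 100 bases in the transcripts of each gene, 7.79% of those of Hsd3b5 also occur in Hsd3b4, Gm4450 or Gm10681. Hsd3b4 has no stretch of its own: 100% of its stretches occur in other genes, and its coding sequence is identical to that of Gm10681. For Hsd3b2 and Hsd3b3 the shared part is 6.90% of 3695 and 3.31% of 6427 stretches, which include long parts outside the coding sequence. Of their 1119 coding bases 95.1% are the same. The shared part within the coding sequence alone was not counted and can be larger. A count of 0 on Hsd3b4 therefore cannot be read as absence, since how reads that match several genes were treated is not given in the sources used here.

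Hsd3b5 (ENSMUSG00000038092) lies at chr3:98618634-98630252. WT22, WT23, WT24 and WT25 had 13, 3, 49 and 31 Hsd3b5 counts. KO26, KO27, KO28 and KO29 had 3918, 2897, 1238 and 692 Hsd3b5 counts. The genotypes were far apart, and the lowest MøFoxO1-KO liver had 17.1 times the normalized count of the highest WT liver. Hsd3b5 normalized counts were 22.8 ± 18.9 in WT livers, against 2292 ± 1534 in MøFoxO1-KO livers (SD, n = 4 each), and the log2 fold change was 6.64 (SE, the standard error, 0.76). The mice of a genotype also differed among themselves. The highest Hsd3b5 value was 15.3 times the lowest among WT livers and 4.85 times the lowest among MøFoxO1-KO livers. With any single mouse left out, the Hsd3b5 log2 fold change lay between 6.28 and 7.22, and it was lowest without WT23. Macrophage markers summed to 5265, 9981, 3347 and 14789 normalized counts in KO26 to KO29, beside 3756, 3460, 1175 and 775 of Hsd3b5. The part of macrophage content in the Hsd3b5 values was not tested.

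**Figure D1:**
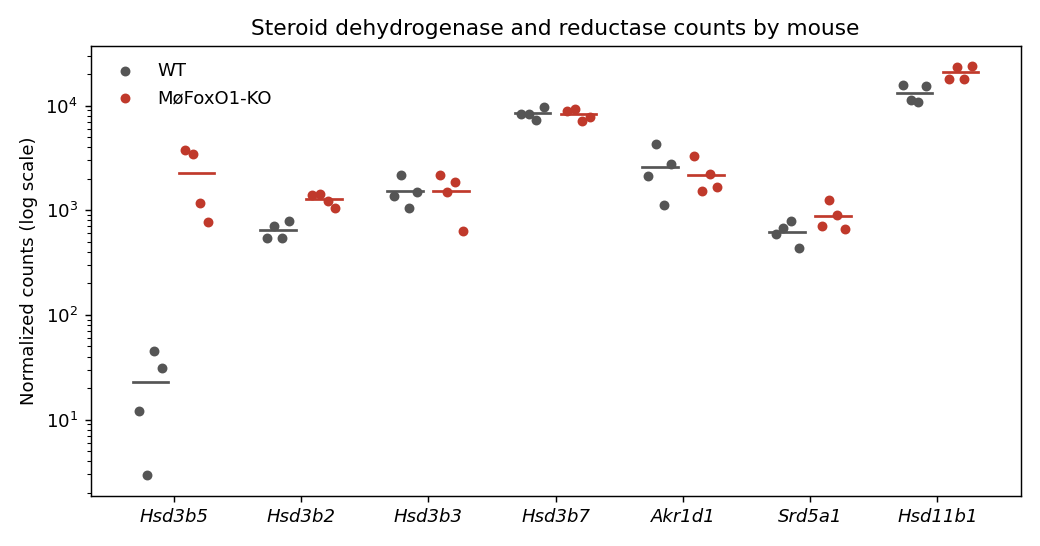
Normalized counts on a log scale (vertical axis) of the 7 members with enough counts to be tested, one point per mouse, WT in grey and MøFoxO1-KO in red, with a bar at the mean of 4 mice. Hsd3b5 separates by the widest gap, while Hsd3b2 and Hsd11b1 separate narrowly and the other 4 genes overlap.

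Hsd3b2 (ENSMUSG00000063730, chr3:98709255-98724543), a dehydrogenase known mainly from kidney, had 585, 714, 587 and 795 counts in WT22 to WT25. In KO26 to KO29 it had 1460, 1205, 1284 and 942 counts. Every MøFoxO1-KO liver was above every WT liver, and the spread within each genotype was small. Hsd3b2 normalized counts were 646 ± 122 in WT livers, against 1278 ± 177 in MøFoxO1-KO livers (SD, n = 4 each), a log2 fold change of 0.98 (SE 0.16). Its place between Hsd3b5 and Hsd3b3 on the chromosome is seen in the plot of the cluster. Hsd3b3 (ENSMUSG00000062410, chr3:98741523-98763127), a dehydrogenase of kidney and liver, did not differ in the same way. Its counts were 1454, 2198, 1139 and 1497 in WT22 to WT25 and 2243, 1239, 1963 and 563 in KO26 to KO29. The genotypes overlapped throughout, and the lowest value was in KO29 while WT23 and KO26 were highest. Hsd3b3 normalized counts were 1516 ± 468 (SD, n = 4) and 1531 ± 660 (SD, n = 4), with a log2 fold change of 0.01 (SE 0.34), so a difference of moderate size in either direction was not detectable. Without WT23 the log2 fold change of Hsd3b3 was 0.24, and without KO26 it was -0.20.

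Hsd3b1, Hsd3b4 and Hsd3b6 had too few counts to be tested. Hsd3b1 (chr3:98852194-98859794), the dehydrogenase of adrenal gland and gonads, had 1 count in WT23 and 1 in WT25. Hsd3b6 (chr3:98805504-98814443) had 1 count in WT23. Hsd3b4 (chr3:98499071-98510514) had 0 counts in all 8 livers, as did its near-identical copies Gm4450 and Gm10681. A count of 0 allows up to 3 counts, or 0.166 to 0.197 CPM (counts relative to library size) in these libraries, by counting error alone. Of the 21 annotated genes from Gm4450 to Hao2, 4 had over 3 counts in any mouse, and they were Hsd3b5, Hsd3b2, Hsd3b3 and Hao2. Hao2, a peroxisomal hydroxyacid oxidase whose gene ends the row, lies 14726 bases beyond Hsd3b1. It had 353, 581, 55 and 566 counts in WT22 to WT25 and 12, 1, 19 and 10 in KO26 to KO29, a log2 fold change of -5.12 (SE 0.78, edgeR quasi-likelihood test, Benjamini-Hochberg adjusted P = 0.0337). Hao2 was thus lower in MøFoxO1-KO livers on the stretch of chromosome on which Hsd3b5 and Hsd3b2 were higher and Hsd3b3 overlapped.

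**Figure D2:**
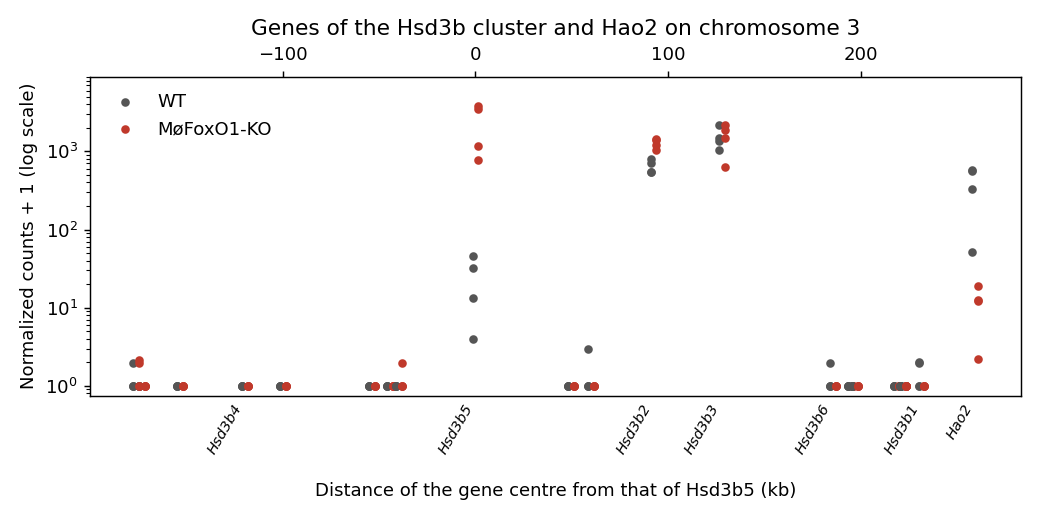
Normalized counts plus 1 on a log scale (vertical axis) of the genes from Gm4450 to Hao2 on chromosome 3, placed by the distance of their centre from that of Hsd3b5 in kb, one point per mouse, WT in grey and MøFoxO1-KO in red. Hsd3b5, Hsd3b2, Hsd3b3 and Hao2 stand above a row of genes at or near 0, and Hao2 has the opposite order of genotypes to Hsd3b5.

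The makeup of the Hsd3b counts differed between the genotypes. Hsd3b5 gave 0.634, 0.103, 2.76 and 1.33% of all counts on Hsd3b1 to Hsd3b6 in WT22 to WT25. In KO26 to KO29 it gave 51.4, 54.2, 27.6 and 31.5%. Hsd3b3 and Hsd3b2 thus made up nearly all counts in WT livers, and Hsd3b5 took a far larger share in every MøFoxO1-KO liver than in any WT liver. The closest livers were WT24, with a 95% Wilson interval of 2.09 to 3.63%, and KO28, with 26.3 to 28.9%. These intervals cover counting error only, and not the spread between mice. Hsd3b5 was chosen for its difference in these livers, so the gap between the intervals is no test of the genotypes. The counts on Hsd3b1 to Hsd3b6 together were 2186 ± 533 normalized counts in WT livers, against 5100 ± 2175 in MøFoxO1-KO livers (SD, n = 4 each), a log2 fold change of 1.22 (SE 0.31). Without Hsd3b5 the sum had a log2 fold change of 0.38 (SE 0.24).

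The starts of the 3 expressed genes of the cluster, and of Hsd3b7 on another chromosome, are shown so that genes with close coding sequences can be compared outside them. Each stretch holds 250 bases before and 50 after the start site given by RefSeq on GRCm38.p6, 5′ to 3′ along the gene. They lie at chr3:98645485-98645784 (minus strand) for Hsd3b5, chr3:98724494-98724793 (minus strand) for Hsd3b2, chr3:98763079-98763378 (minus strand) for the start of Hsd3b3 at the end of the counted gene, and chr7:127800359-127800658 (plus strand) for Hsd3b7. Capitals mark TTCNNNGAA, a core that some STAT factors downstream of growth hormone and cytokines bind. Cores with another spacing between TTC and GAA were not searched and are not marked.
Hsd3b5: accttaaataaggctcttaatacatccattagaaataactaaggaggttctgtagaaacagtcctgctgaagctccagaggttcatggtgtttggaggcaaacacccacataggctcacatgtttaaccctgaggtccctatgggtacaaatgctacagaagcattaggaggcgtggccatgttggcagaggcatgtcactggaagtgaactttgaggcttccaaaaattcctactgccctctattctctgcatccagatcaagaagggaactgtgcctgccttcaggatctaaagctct
Hsd3b2: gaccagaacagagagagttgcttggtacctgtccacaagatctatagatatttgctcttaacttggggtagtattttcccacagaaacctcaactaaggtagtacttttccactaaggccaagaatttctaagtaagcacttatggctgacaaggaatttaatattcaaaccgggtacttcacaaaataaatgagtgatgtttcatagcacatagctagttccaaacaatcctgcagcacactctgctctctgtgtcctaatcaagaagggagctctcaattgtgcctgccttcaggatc
Hsd3b3: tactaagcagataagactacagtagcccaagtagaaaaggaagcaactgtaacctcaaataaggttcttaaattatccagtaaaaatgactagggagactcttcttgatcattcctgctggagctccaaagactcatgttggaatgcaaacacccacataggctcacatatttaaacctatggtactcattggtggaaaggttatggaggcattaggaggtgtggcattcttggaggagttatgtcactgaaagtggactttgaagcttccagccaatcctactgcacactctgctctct
Hsd3b7: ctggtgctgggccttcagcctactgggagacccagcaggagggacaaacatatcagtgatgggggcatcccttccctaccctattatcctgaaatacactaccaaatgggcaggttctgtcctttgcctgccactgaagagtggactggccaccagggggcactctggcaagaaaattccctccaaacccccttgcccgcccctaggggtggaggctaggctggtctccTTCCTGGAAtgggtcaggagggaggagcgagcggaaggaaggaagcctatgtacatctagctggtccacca
RefSeq places the Hsd3b5 start upstream of the counted gene, with 15232 bases between the end of the counted gene and the stretch shown. In alignments over the full length, 249 bases of the Hsd3b5 stretch were paired with a base of the Hsd3b3 stretch, and 77.1% of these were identical. With the Hsd3b2 stretch 280 bases were paired and 58.2% were identical, and with that of Hsd3b7 280 were paired and 50.4% were identical. All 10 members had a RefSeq stretch of this kind, and Hsd3b3 and Hsd3b4 had more than one. TTCNNNGAA, read on both strands, was in the stretches of Hsd3b7, from 21 to 13 bases before the start, and Hsd3b1, from 122 to 114 bases before it. Of 32851 such stretches in the genome, 8.30% hold it. TGTTTAC, a core bound by forkhead factors, was found on either strand among the members in the stretch of Hsd11b1 alone, against 3.65% of all stretches. TATAAA was found in Hsd3b4 alone, against 13.6% of all stretches. A match is a description of letters, and its absence says only that these letters are not in the window shown.

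Hsd11b1, the enzyme that regenerates active glucocorticoid in the liver, was the member with the most counts (ENSMUSG00000016194, chr1:193221634-193264075, minus strand). It had 16619, 11441, 11790 and 15429 counts in WT22 to WT25 and 18578, 19715, 18697 and 21125 in KO26 to KO29. Each MøFoxO1-KO liver was above each WT liver, with a gap of 1.14 times between the lowest MøFoxO1-KO and the highest WT value after normalization. Hsd11b1 normalized counts were 13265 ± 2546 in WT livers, against 20687 ± 3361 in MøFoxO1-KO livers (SD, n = 4 each), with a log2 fold change of 0.64 (SE 0.18). Srd5a1 (ENSMUSG00000021594, chr13:69573449-69611442, minus strand) encodes a steroid reductase that acts on testosterone and glucocorticoids. It had 637, 690, 848 and 434 counts in WT22 to WT25 and 736, 1053, 945 and 595 in KO26 to KO29. The genotypes overlapped, with WT24 above 2 of the MøFoxO1-KO livers after normalization. Srd5a1 normalized counts were 622 ± 148 (SD, n = 4) and 882 ± 270 (SD, n = 4), a log2 fold change of 0.50 (SE 0.23) that was 0.29 without KO27. In its transcripts, 13.6% of the stretches of 100 bases are shared with the overlapping gene Gm17108.

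Akr1d1 (ENSMUSG00000038641, chr6:37530173-37568815, plus strand) encodes the reductase that gives bile acids and cleared steroid hormones their bent ring. It had 2248, 4384, 1205 and 2805 counts in WT22 to WT25 and 3422, 1289, 2358 and 1486 in KO26 to KO29. Both the lowest and the highest liver were WT, so the MøFoxO1-KO range lay inside the WT range. Akr1d1 normalized counts were 2580 ± 1345 in WT livers, against 2180 ± 794 in MøFoxO1-KO livers (SD, n = 4 each). The log2 fold change was -0.24 (SE 0.37), and without WT23 it was 0.12. Hsd3b7 (ENSMUSG00000042289), the only member of its family with a known role in bile acid synthesis, was the steadiest of the 7. It had 8877, 8523, 7846 and 9827 counts in WT22 to WT25 and 9287, 7731, 7562 and 6883 in KO26 to KO29, with a log2 fold change of -0.03 (SE 0.14). The genotypes overlapped throughout, and its coding sequence shares between 52.5 and 54.0% of its bases with the genes of chromosome 3. The gene as counted, at chr7:127785608-127803802 on the plus strand, starts upstream of the RefSeq start shown above and includes exons of a read-through transcript, Gm49388, with which 42.7% of the stretches of 100 bases in Hsd3b7 transcripts are shared, so not every count need be of Hsd3b7 itself.

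**Figure D3:**
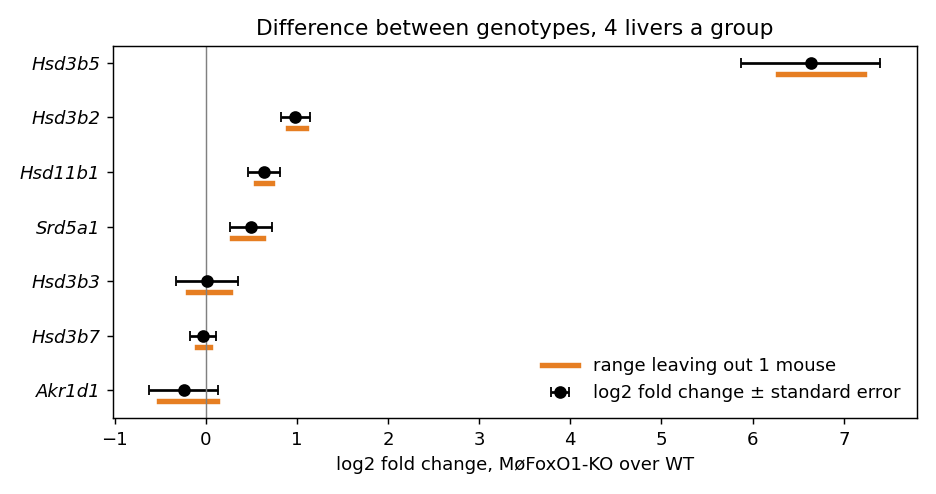
Log2 fold change of MøFoxO1-KO over WT livers (horizontal axis) for the 7 members. Black bars show the standard error worked out from the edgeR test. Orange bars show the range when each of the 8 mice is left out in turn. Hsd3b5 lies at 6.64, Hsd3b2, Hsd11b1 and Srd5a1 lie between 0.50 and 0.98, and Hsd3b3, Hsd3b7 and Akr1d1 lie near 0 with ranges that cross it.

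Of the 10 members, 7 passed the filter on low counts, and 5 of these had a log2 fold change above 0, as did 48.3% of the 13278 genes tested. Their median was 0.50, beside -0.01 for all genes tested. Hsd3b5 was the 1 member that was called in edgeR, which asks for an adjusted P under 0.05 together with a log2 fold change beyond 1.5 in size, and 25 genes (0.188%) were called in all, of which 7 were higher. With the adjusted P alone Hsd3b5 and Hsd3b2 passed, as did 0.294% of all genes tested. When each of the 8 mice was left out, Hsd3b5 passed 7 times, failing without WT25, and Hsd3b2 passed 1 time, without KO28. The number of all genes called by both thresholds was 3 without WT25 and 82 without KO28. In limma-voom Hsd3b5 did not pass. The normalized counts of 3 members, Hsd3b5, Hsd3b2 and Hsd11b1, were higher in MøFoxO1-KO livers without overlap, as were those of 5.0% of all genes tested. The members were chosen on this contrast, so nothing is read from these counts.

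Set against the length of the gene, the members took different places in the 2 genotypes. Levels are normalized CPM per kilobase of summed exons. In WT livers the order was Hsd11b1 at 190 ± 36.5, Hsd3b7 at 83.4 ± 10.3, Akr1d1 at 54.3 ± 28.3, Hsd3b3 at 14.4 ± 4.46, Srd5a1 at 13.2 ± 3.13, Hsd3b2 at 10.6 ± 2.01 and Hsd3b5 at 0.896 ± 0.744 (SD, n = 4). Hsd11b1 stood clear of Hsd3b7, Akr1d1 of Hsd3b3 and Hsd3b2 of Hsd3b5 in the range over 4 mice, while Hsd3b7 and Akr1d1, and Hsd3b3, Srd5a1 and Hsd3b2 in turn, overlapped with their neighbours. Hsd3b5 took place 7 in WT livers and place 2 in MøFoxO1-KO livers. The order was Hsd11b1 at 296 ± 48.1, Hsd3b5 at 90.1 ± 60.3, Hsd3b7 at 81.6 ± 9.64, Akr1d1 at 45.9 ± 16.7, Hsd3b2 at 21.1 ± 2.92, Srd5a1 at 18.6 ± 5.71 and Hsd3b3 at 14.6 ± 6.28 (SD, n = 4). Hsd11b1 stood clear of Hsd3b5, Hsd3b7 of Akr1d1 and Akr1d1 of Hsd3b2. Hsd3b5 and Hsd3b7 overlapped, as did Hsd3b2, Srd5a1 and Hsd3b3 with their neighbours. Summed exons exceed the coding sequence to a different degree in each gene. They have 1549 against 1119 bases in Hsd3b5, 6154 against 1107 in Hsd3b7 and 2893 against 975 in Akr1d1. By coding length Hsd3b5 took place 4 in MøFoxO1-KO livers, with Hsd3b7 at place 2 and Akr1d1 at place 3. Akr1d1 and Hsd3b5 overlapped there.

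**Figure D4:**
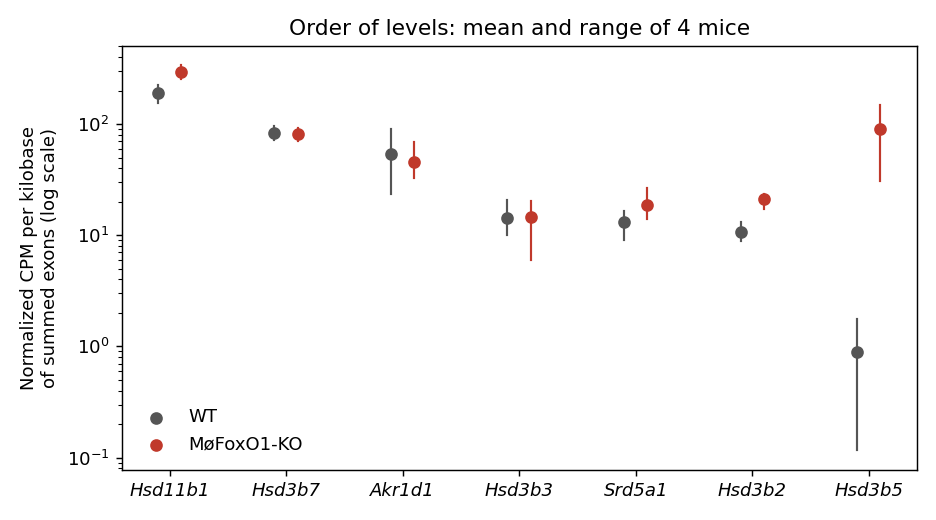
Normalized CPM per kilobase of summed exons on a log scale (vertical axis) for the 7 members, ordered by their WT level, with the mean as a point and the range of 4 mice as a line, WT in grey and MøFoxO1-KO in red. Hsd3b5 is at 0.896 in WT livers, the lowest WT level of the 7, and at 90.1 in MøFoxO1-KO livers, next to Hsd3b7.

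Within the genotypes no other member had values close to those of Hsd3b5 in pattern. After the mean of each genotype was subtracted from log2 normalized values, Pearson's r with Hsd3b5 over the 8 mice was 0.31 for Hsd3b7, 0.24 for Hsd3b2, 0.14 for Srd5a1, 0.04 for Hsd3b3, 0.00 for Hsd11b1 and -0.43 for Akr1d1. The genes most like Hsd3b5 by this measure were Acap3 and Lrrc8a at 0.99, Epn3 and Maml2 at 0.97 and Snx15 at 0.96. Of all genes tested, 47 had an r over 0.9. All values come from the same 8 libraries. In WT livers Hsd3b5 had only 3 to 49 counts, so counting error weighs on every r given here. Of the 5 most like genes, 1 was also among the 5 most like by Spearman's rho and 1 without WT23 and KO29, the mice farthest from the median of Hsd3b5, so the order depends on the measure and on the livers kept.

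Other enzymes of steroid metabolism, from a list of 42 of which 28 were tested, were spread to both sides of 0. Of the 28, 15 had a log2 fold change above 0 and 13 below, with a median of 0.02. None was called in edgeR with Benjamini-Hochberg adjustment or in limma-voom, beside 0.0979% of all genes in limma-voom. DESeq2, run without the filter on low counts, called 1, beside 0.749% of 23647 genes. At an unadjusted P under 0.05 in edgeR there were 2 higher and 6 lower, beside 8.65% and 8.06% of all genes. The 2 were Sult1e1, the estrogen sulfotransferase, and Sult2a8, a sulfotransferase of bile acids in mouse liver. Sult1e1 had 7.49, 22.6, 5.54 and 15.9 normalized counts in WT22 to WT25 and 266, 913, 2.85 and 19.0 in KO26 to KO29. It was thus high in KO26 and KO27, the livers with the most Hsd3b5, and within the WT range in KO29 and below it in KO28, with a log2 fold change of 4.53 (SE 1.35, edgeR adjusted P = 0.164). Sult2a8 had a log2 fold change of 0.68 (SE 0.16, edgeR adjusted P = 0.115). The 6 with lower values were the reductase Cbr1, the dehydrogenases Rdh16 and Rdh9, Akr1c14, Srd5a3 and Hsd17b12. Rdh16 had a log2 fold change of -0.91 (SE 0.22, adjusted P = 0.119) and Cbr1 of -0.91 (SE 0.19, adjusted P = 0.0968). Cyp17a1, the hydroxylase of androgen synthesis, had 91.0 ± 63.8 normalized counts in WT livers, against 45.3 ± 38.8 in MøFoxO1-KO livers (SD, n = 4). H6pd, which supplies Hsd11b1 with its cofactor, had a log2 fold change of -0.03 (SE 0.15). Sult2a8, Cbr1, Rdh9, Akr1c14, Srd5a3, Hsd17b12 and H6pd are named here after their values were seen.

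Around Hsd3b7 and Akr1d1, 17 of 18 listed genes of bile acid synthesis were tested, with a median log2 fold change of 0.13, and 1 was called higher and 1 lower, beside 0.0527% and 0.136% of all genes. Cyp7b1, the oxysterol hydroxylase of the alternative pathway, rose from 1322 ± 539 to 5544 ± 1750 normalized counts (SD, n = 4), a log2 fold change of 2.07 (SE 0.33, edgeR, Benjamini-Hochberg adjusted P = 0.0370). Cyp39a1, which hydroxylates another oxysterol, fell from 485 ± 111 to 43.1 ± 36.1 (SD, n = 4), with a log2 fold change of -3.47 (SE 0.45, adjusted P = 0.0171). In both genes no MøFoxO1-KO liver overlapped with a WT liver. The third gene by size of change was Cyp2c70, which makes muricholic acids, at 0.65 (SE 0.44, adjusted P = 0.502). The call of Cyp7b1 was lost without WT22, WT24, WT25, KO26, KO27 or KO29, and that of Cyp39a1 without WT22, WT25, KO26, KO27 or KO29. Around Hsd11b1, 18 of 19 listed genes that respond to glucocorticoids were tested, and 7 had a log2 fold change above 0 and 11 below, with a median of -0.14. None was called in edgeR (Benjamini-Hochberg), DESeq2 or limma-voom, and 3 were lower at an unadjusted P under 0.05 in edgeR, beside 8.06% of all genes. The largest changes of this list were Lcn2, an acute phase gene, at -1.69 (SE 0.60), Klf9 at -0.95 (SE 0.38) and Per1, a clock gene, at -0.87 (SE 0.39). Each had overlapping genotypes. Per1 had an unadjusted P of 0.0519 in edgeR and so was not among the 3 lower genes. WT23 was the highest liver for Lcn2, with 1874 normalized counts against 242 to 413 in the other WT livers. The same held for Klf9, with 1646 against 573 to 680.

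Hsd3b5 and Hao2 belong to the sex-biased genes of mouse liver, and lists of other such genes were counted beside them. Of 23 male-biased genes tested, all 23 had a log2 fold change above 0, with a median of 1.53, and 4 were called higher (Mup1, Mup12, Susd4 and Cyp7b1), beside 0.0527% of all genes. Mup12, a major urinary protein, was at 3.61 (SE 0.53, edgeR adjusted P = 0.0337), whereas Mup7 at 5.31 (SE 1.12, adjusted P = 0.0968) and Serpina1e at 3.53 (SE 0.68, adjusted P = 0.0758) did not pass. Mup, Serpina1 and Cyp2 genes are known to have close copies, so the split of counts among them is uncertain. Nudt7, a peroxisomal hydrolase, passed the adjusted P alone at 1.07 (SE 0.14, adjusted P = 0.0171). Of 26 female-biased genes tested, 25 were below 0, with a median of -1.56, and 8 were called lower, beside 0.136% of all genes. They were Hao2, Cyp39a1, Cyp2a4, Cyp2a22, Cyp2c38, Slc22a26, Slc22a27 and Cd36, and the exception above 0 was Sult1e1. Cd36, the fatty acid carrier, fell from 5267 ± 703 to 1755 ± 239 normalized counts (SD, n = 4, adjusted P = 0.00935). The number of male-biased genes called was 0 without WT25, 1 without KO26 or KO27, 2 without KO29 and 9 without KO28, and that of female-biased genes was 2 without WT25 and 5 without WT22, KO26 or KO27. These lists were made with the change in Hsd3b5 known. Several of their genes, such as Mup1, Mup12, Cyp2a4, Cyp2a22, Cyp2c38 and Cd36, had also been reported as changed in these livers by the study's authors. The lists are therefore no independent evidence of a direction. Of 28 hormone receptors and regulators, none was called by edgeR (Benjamini-Hochberg), DESeq2 or limma-voom, and 3 were higher and 3 lower at an unadjusted P under 0.05 in edgeR, beside 8.65% and 8.06% of all genes. Stat5a, which carries signals of growth hormone and cytokines, was at -0.79 (SE 0.16, adjusted P = 0.0851) and the growth hormone target Igfals at 0.69 (SE 0.20, adjusted P = 0.152).

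**Figure D5:**
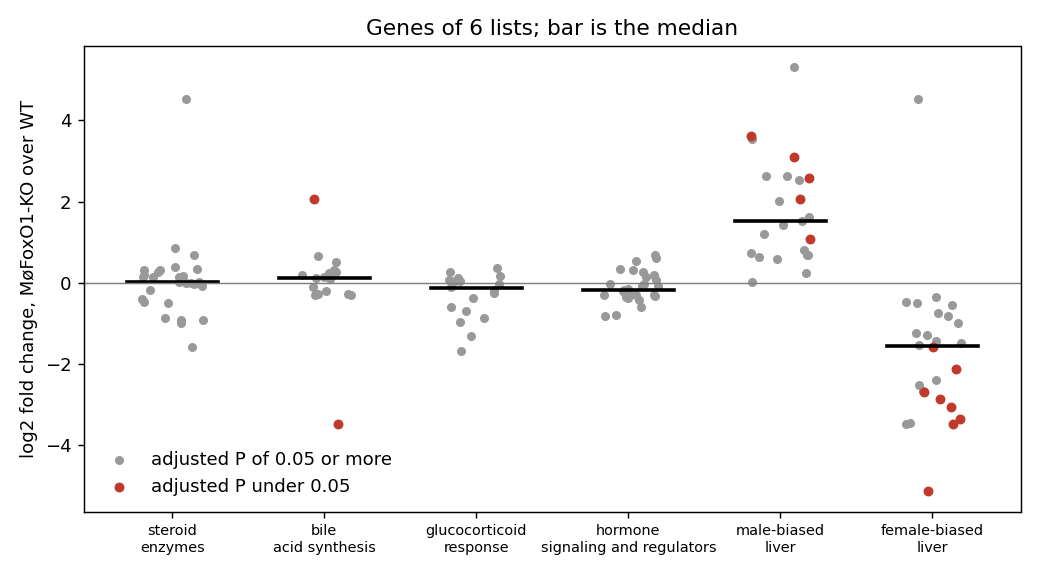
Log2 fold change of MøFoxO1-KO over WT livers (vertical axis) for each tested gene of 6 lists, with a black bar at the median and genes at an adjusted P under 0.05 in red. The steroid enzyme, bile acid, glucocorticoid response and hormone lists have medians between -0.17 and 0.13, and the male-biased and female-biased lists have medians of 1.53 and -1.56.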

How the data were processed

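RNA-Seq of whole liver was compared between 4 MøFoxO1-KO and 4 WT mice, each a separate animal. The authors deposited read counts per gene without normalization, and the submitters' processing notes name STAR, featureCounts and mm10. Strand and multiple-match settings are not given in the sources used here. Symbols came from GENCODE M21 for 46005 of 46517 genes, and the 512 others held 0.0399% of counts. With edgeR 4.0.16 in R 4.3.3, genes were filtered (filterByExpr, minimum count 10, minimum total 15), normalized by TMM and tested by the quasi-likelihood F test, with Benjamini-Hochberg adjustment over 13278 genes. Values are mean ± SD. Each SE was worked out from the quasi-likelihood test, as the size of the log2 fold change over the square root of F. For Hsd3b5 the SE was 0.76 this way, 0.85 in DESeq2 and 1.15 in limma-voom. Depth was 15253218 to 18025481 counts per mouse, which limits precision for genes with few counts. Alternatives were DESeq2 1.42.0, limma-voom 3.58.1, other scalings and filters, and leaving out each mouse. DESeq2 was run without the filter on low counts and tested 23647 genes. Sequences came from GENCODE M21 transcripts, GRCm38 and RefSeq.

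The members and gene lists were chosen with earlier results of these data known. Named genes are the members, list genes at an adjusted P under 0.05, the 3 largest changes of each list among genes with a mean of at least 50 normalized counts in the higher group, and the 5 genes most like Hsd3b5. Other genes are said to be named after their values were seen. One result that this rule would name is not reported here. Of the marker lists (hepatocyte, macrophage, lymphocyte and neutrophil, stellate cell, endothelial, cholangiocyte and adrenal), edgeR and limma-voom called no gene. DESeq2 called 2 macrophage markers, Marco and Timd4. Of all genes tested, edgeR called 0.188%, limma-voom 0.0979% and DESeq2 0.749%. Log2 fold changes of the 12 macrophage markers in edgeR ran from -0.77 to 5.18. Marco had 5 to 88 counts in WT and 70 to 2271 in MøFoxO1-KO livers. Above and below 0 were 7 and 2 tested markers of lymphocytes and neutrophils, 5 and 4 of stellate cells and 7 and 0 of endothelium. There were 1 and 4 of cholangiocytes and 2 and 0 of adrenal, beside 48.3% of all genes tested above 0.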

Additional observations from a re-analysis of the deposited data

Results flagged for a closer look

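Among the 33 genes named with values for single mice, each genotype was examined for 1 liver far from the other 3 by Dixon's criterion, which chance meets in about 1 of 20 groups. Of 66 groups, 8 met it, and no group of Hsd3b5 or another member did. WT23 had 1874 normalized counts of Lcn2 (242 to 413 in the other WT livers), 1646 of Klf9 (573 to 680) and 391 of Stat5a (278 to 297). WT25 had 509 normalized counts of Per1 (285 to 295 in the others). WT24 had 14987 of Serpina1e (2533 to 4003) and 1175 of Igfals (1725 to 1770). KO29 had 931 normalized counts of Cyp2c39 (21.5 to 37.4 in the other MøFoxO1-KO livers), and KO26 had 3632 of Igfals (2203 to 2270).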

How the results depend on the processing

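The log2 fold changes of the 7 members moved by less than the spread between mice under every alternative run, and leaving out each mouse gave 6.28 to 7.22 for Hsd3b5, 0.91 to 1.10 for Hsd3b2, 0.56 to 0.73 for Hsd11b1 and 0.29 to 0.63 for Srd5a1. The sign of Hsd3b3 (-0.20 to 0.27), Hsd3b7 (-0.10 to 0.05) and Akr1d1 (-0.51 to 0.12) depended on the mice kept. At 10 counts in every mouse Hsd3b5 gave no value. The sum of Hsd3b1 to Hsd3b6 fell to a log2 fold change of 0.38 without Hsd3b5. By coding length, chosen after seeing the data, Hsd3b5 took place 4 in MøFoxO1-KO livers. The number of genes called was 25, and 39 with the adjusted P alone. It was 120 in edgeR without a filter, 13 with limma-voom and 3 to 82 when leaving out each mouse. DESeq2, run without the filter over 23647 genes, called 177, so it differs from the main fit in both tool and filter. DESeq2 called 1 steroid enzyme higher, 12 male-biased genes higher, and 1 female-biased gene higher and 12 lower, beside 0.749% of all genes. Male-biased genes called were 11 without a filter and 0 to 9 leaving out each mouse, and female-biased genes called lower were 5 at 10 counts in every mouse and 2 to 8 leaving out each mouse. The median of the female-biased list was -2.27 with DESeq2 and -2.28 without a filter. Bile acid genes called were 0 to 1 in each direction leaving out each mouse. Of the 5 genes most like Hsd3b5, 1 was shared with Spearman's rho and 1 without WT23 and KO29. The cause of these shifts was not tested. No analysis paired by litter was possible, because the labels do not say which mice share a litter. Litter was therefore not taken into account.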
